A study of Mus musculus with 48 samples.

Results

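The 43 genes described here encode proteins that bind pre-messenger RNA or build the splicing machinery in the mouse. They are 20 heterogeneous nuclear ribonucleoprotein (hnRNP) genes, 11 serine and arginine rich splicing factor genes (Srsf) and 12 small nuclear ribonucleoprotein (snRNP) protein genes. The rule took protein-coding genes whose symbol begins with Hnrnp, with Srsf and a digit, or with Snrp. All 43 were among the 47643 genes listed in the files, and 5 pseudogenes with such symbols were left out. The libraries came from mice of the strain Tg(Aldh1l1-eGFP/Rpl10a) JD130Htz, written Aldh1l1:L10a-eGFP in short. These mice carry a transgene in which ribosomal protein L10a fused to eGFP is made under the control of Aldh1l1, a gene of astrocytes, and both groups share it. Ribosomes of the dorsal hippocampus were captured through eGFP with the RNA bound to them (TRAP, translating ribosome affinity purification). One group was the whole astrocyte (Astro, n = 3 animals), and the other was the perisynaptic astrocytic process (PAP, n = 3), the fine part of the astrocyte next to synapses. The same 3 animals gave both groups, the labels name no treatment, and they give neither age nor sex. Each library was the sum of 8 technical replicates.

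Proteins of the hnRNP families coat nascent transcripts, often repress the use of nearby exons, and several shuttle to the cytoplasm with mRNA, where they take part in mRNA transport, stability and translation. SR proteins recognise exonic enhancers and recruit the spliceosome, and some of them escort mRNA out of the nucleus. The Snrp genes mostly encode the Sm proteins, which form a ring around the small nuclear RNAs in the cytoplasm before these particles return to the nucleus. These proteins are mainly nuclear, but their mRNAs are translated on cytoplasmic ribosomes, and TRAP measures those mRNAs, not the proteins.

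The Astro libraries held 18707844 to 20293538 counts and the PAP libraries 1829962 to 2980984. Levels are given in CPM, the count of a gene relative to the library's size, and 3 counts, used as the floor, were worth 0.148 to 0.16 CPM for Astro and 1.01 to 1.64 CPM for PAP. CPM of genes below are scaled by TMM factors, which adjust for differences in library composition. The label of the cells was checked on 20 astrocyte markers, each with counts in at least 1 PAP library. Aldh1l1 stood at 232, 224 and 250.2 CPM in Astro and at 50, 83.5 and 110.4 CPM in PAP. The markers summed to 39852 to 58318 CPM in Astro and to 7278, 15276 and 26790 CPM in PAP. All 20 had a log2 fold change below 0, with a median of -1.58 beside -0.53 over all genes tested. In 18 of them all PAP libraries lay below all Astro libraries, beside 35.1% of all genes tested. Of the 20, edgeR called 7 lower in PAP and 0 higher, beside 15.4% and 5.92% of all genes tested. Once the animal was a block, edgeR called 0 of them in either direction, beside 0.0342% of all genes tested lower and 0.876% higher. At an unadjusted p under 0.05 that fit had 16 lower and 0 higher, beside 17.9% and 5.42%. Without the block DESeq2 called 16 lower and 0 higher, and limma voom 3 and 0. Over all genes tested DESeq2 called 23.6% lower and 11.5% higher, and limma voom 19.9% and 4.13%. PAP is a part of the astrocyte, so these markers do not measure a number of cells, and the cause of their lower level was not tested.

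Of the 43 genes, edgeR called 5 higher in PAP (11.6%, beside 5.92% of all genes tested), and 0 with the animal as a block. The start sites of these 5 genes are shown first. Each line below is the RefSeq promoter of the gene on GRCm38.p6, 5′ to 3′ on the gene's own strand, from 80 bases before the annotated start to 20 after it. Capitals mark a match to TATAAA (searched on the gene's strand), to CCGGAAG, the core of the sites bound by ETS factors, or to GGGCGG, the GC box bound by Sp factors (both searched on both strands).
Hnrnpa1 (chr15:103240317-103240416, plus strand): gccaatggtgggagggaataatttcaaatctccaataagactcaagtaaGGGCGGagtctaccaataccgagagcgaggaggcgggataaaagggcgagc
Srsf3 (chr17:29032580-29032679, plus strand): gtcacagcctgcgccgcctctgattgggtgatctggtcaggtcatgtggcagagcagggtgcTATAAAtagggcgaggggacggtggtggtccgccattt
Srsf9 (chr5:115327097-115327196, plus strand): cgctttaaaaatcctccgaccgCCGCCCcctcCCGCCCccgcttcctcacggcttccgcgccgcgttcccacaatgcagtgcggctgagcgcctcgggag
Snrpe (chr1:133610261-133610360, minus strand): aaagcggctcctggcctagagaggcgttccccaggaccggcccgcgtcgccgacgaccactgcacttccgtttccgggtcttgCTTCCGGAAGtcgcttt
Snrpg (chr6:86371460-86371559, plus strand): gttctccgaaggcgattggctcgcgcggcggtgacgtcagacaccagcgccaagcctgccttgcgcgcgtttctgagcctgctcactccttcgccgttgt

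TATAAA was found in Srsf3 only, with its first base 18 bases before the annotated start. In Snrpe the 10 capital letters hold 2 overlapping matches to the ETS core on opposite strands, just downstream of the start. Hnrnpa1 holds a GC box on its own strand, and Srsf9 holds 2 on the opposite strand. Snrpg has none of these matches in the letters printed and 1 match to the ETS core elsewhere in its window of 300 bases. Over windows of that length, 39 of the 43 genes had an entry in the table, with 55 windows. CCGGAAG or its complement occurred in 25.5% of those windows and in 8.86% of all 32851 promoters of the table. GGGCGG or its complement occurred in 70.9% and 35.7%, TATAAA in 9.09% and 8.32%, and AAGATGGC, a core bound by YY1, on either strand in 1.82% and 2.75%. These are descriptions of letters, chosen after the windows had been seen, and they carry no test.

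Of 43 genes, 5 were higher in PAP and 0 were lower, by edgeR's quasi-likelihood test at a Benjamini-Hochberg adjusted p under 0.05 over all 14618 genes tested. They were Hnrnpa1 among the hnRNP genes, Srsf9 and Srsf3 among the SR protein genes, and Snrpe and Snrpg among the snRNP genes. The 5 are 11.6% of the 43, beside 5.92% of all genes tested called higher and 15.4% called lower. At an unadjusted p under 0.05, 9 members were higher and 2 lower (Snrpn and Srsf12), beside 9.39% and 21.5% of all genes tested. DESeq2 called 9 members higher and 3 lower, and limma voom, with weights that let each group have its own variance, called 5 and 1. Over all genes tested DESeq2 called 11.5% higher and 23.6% lower, and limma voom 4.13% and 19.9%. With the animal as a block, edgeR called 0 members in either direction, with 5 higher and 1 lower at an unadjusted p under 0.05. In that blocked fit 0.876% of all genes tested were called higher and 0.0342% lower (5.42% and 17.9% at an unadjusted p under 0.05), and the lowest adjusted p of a member was 0.109. Leaving out any one of the 3 Astro libraries also left 0 members called by edgeR, and of all genes tested without Astro animals 1, 2 and 3, 0.881%, 0.954% and 1.05% were called higher and 0.00773%, 0.0388% and 0.0389% lower. At an unadjusted p under 0.05 those fits had 5 members higher each, beside 7.11%, 7.47% and 7.57% of all genes, and 1 member lower without Astro animal 3 and 0 without the others, beside 14.1%, 13.9% and 14.6%. Leaving out any one PAP library gave 6 called higher, with 0 lower without animal 1, 1 lower (Srsf12) without animal 2 and 1 lower (Snrpn) without animal 3. In those fits 5.75%, 6.74% and 7.57% of all genes tested were called higher and 19.6%, 17.8% and 20.2% lower.

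**Figure D1:**
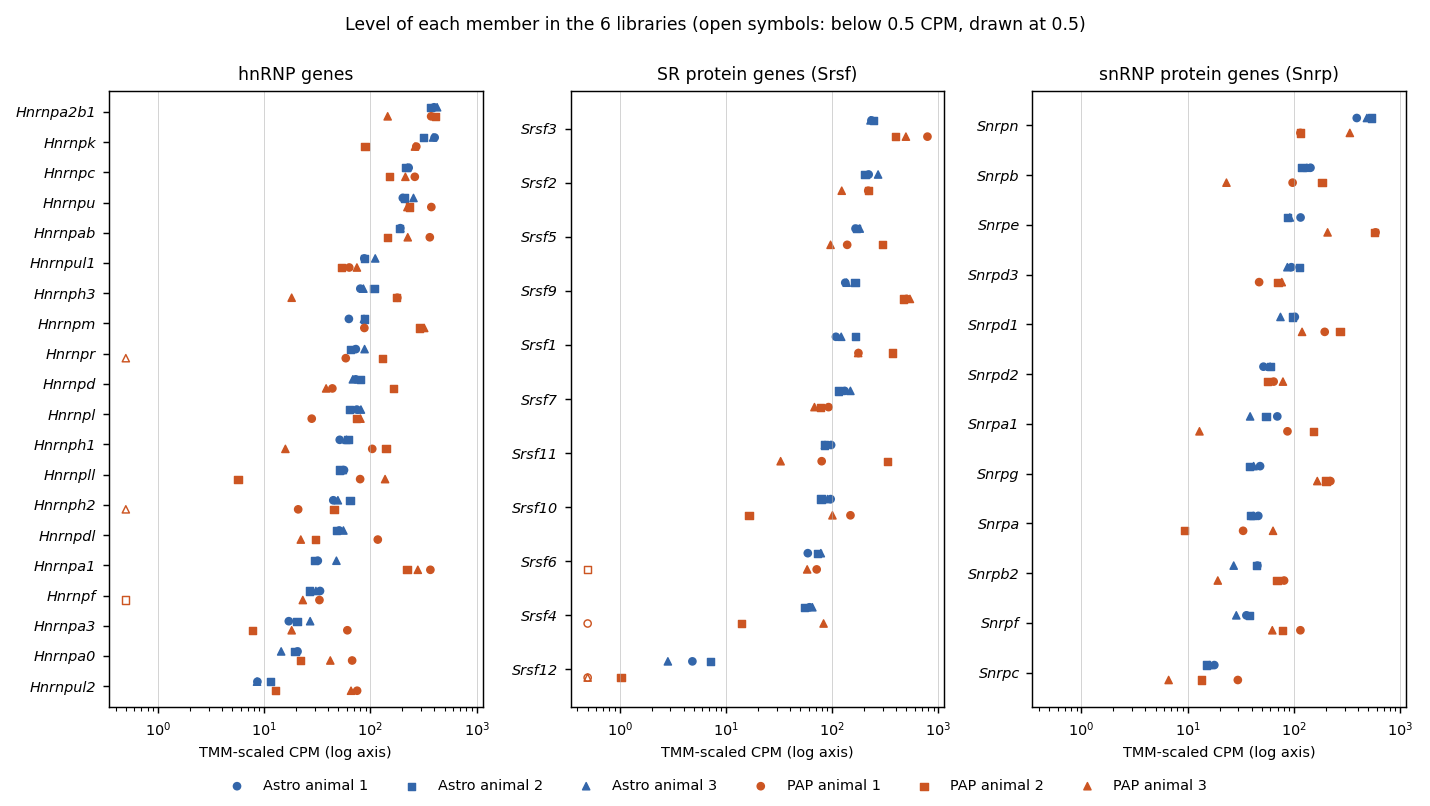
TMM-scaled CPM (log axis) of each of the 43 genes in the 6 libraries, by family; blue symbols are Astro, orange symbols PAP, the marker shape gives the animal, and open symbols are values below 0.5 CPM drawn at 0.5. The 3 Astro symbols of a gene lie close together, while the 3 PAP symbols often spread widely.

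Among the hnRNP genes, Hnrnpa1 was the only one of 20 called by edgeR, or 5%, beside 5.92% of all genes tested called higher. Its PAP level was far above its Astro level in every animal. Hnrnpa1 (ENSMUSG00000046434, chr15:103240432-103246692, plus strand, GRCm38) encodes a shuttling protein that represses exon inclusion and opposes SR proteins in the choice of splice sites. It stood at 32.0, 30.0 and 47.9 CPM in Astro animals 1 to 3 and at 367, 221 and 279.5 CPM in PAP. All PAP libraries lay above all Astro libraries, and the lowest PAP value was several times the highest Astro value. The log2 fold change was 2.98 ± 0.40 (SE, n = 3 per group), or 7.89-fold, with an adjusted p of 0.0152 in edgeR and 0.109 with the animal as a block. Over 17 alternatives its edgeR, DESeq2 or limma adjusted p ran from 8.83e-18 to 0.109, and its log2 fold change from 2.73 to 3.26. Within animals the log2 ratio of PAP to Astro was 3.52, 2.88 and 2.54. Its exons share 28.2% of their words of 50 bases with other transcripts, among them 19 pseudogenes, so its own level depends on how reads with several matches were counted, which is not given in the sources used here.

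The 2 hnRNP genes with the highest Astro level per kilobase of exon were Hnrnpab and Hnrnpa2b1, and neither was called. Both encode proteins that bind transport elements of localised mRNAs such as Mbp. Hnrnpab stood at 68.5 ± 0.454 CPM per kilobase in Astro (SD, n = 3) and Hnrnpa2b1 at 60.2 ± 4.35. In CPM, Hnrnpab was at 191, 189 and 192 in Astro and at 362, 145 and 225 in PAP, so that the groups overlapped. Its log2 fold change was 0.36 ± 0.40 with an edgeR adjusted p of 0.639, and it was -0.09 without PAP animal 1, which holds its highest value. Hnrnpa2b1 was at 398, 367 and 425 CPM in Astro and at 373, 409 and 145 CPM in PAP. Animal 3 alone was low in PAP, and the log2 fold change was -0.36 ± 0.42 with an edgeR adjusted p of 0.657.

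The other hnRNP genes were not called by edgeR with all 6 libraries, while DESeq2 also called Hnrnpm and Hnrnpul2 higher. In 3 of them, Hnrnpa0, Hnrnpm and Hnrnpul2, all PAP libraries lay above all Astro libraries. With Hnrnpa1 that was 4 of 20 hnRNP genes (20%), beside 10.9% of all genes tested. Hnrnpm, whose protein acts in splicing of many pre-mRNAs, stood at 62.8, 87.3 and 87.1 CPM in Astro and at 87.8, 289.7 and 321 CPM in PAP, with a log2 fold change of 1.56 ± 0.55 and an edgeR adjusted p of 0.102. The PAP value of animal 1 was hardly above the highest Astro value, and without that library edgeR called the gene higher. Hnrnpul2, a relative of Hnrnpu, stood at 8.65, 11.4 and 8.58 CPM in Astro and at 75.0, 12.9 and 65.8 CPM in PAP, with a log2 fold change of 2.42 ± 0.89 and an edgeR adjusted p of 0.117. Here animal 2 was the low one, and without that PAP library edgeR called the gene higher. In Hnrnpk and Hnrnpul1, 2 of the 20, all PAP libraries lay below all Astro libraries, beside 35.1% of all genes tested. Hnrnpk, whose protein binds runs of C in RNA, was at 402.5, 316 and 389 CPM in Astro and at 270.4, 89.2 and 263 CPM in PAP, with a log2 fold change of -0.83 ± 0.46 and an edgeR adjusted p of 0.299. Hnrnpc and Hnrnpu, 2 abundant nuclear members, had log2 fold changes of -0.09 ± 0.32 and 0.32 ± 0.32, and their groups overlapped.

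The remaining hnRNP genes overlapped between groups, apart from Hnrnpa0 and Hnrnpul1 above, and differed from animal to animal in PAP. Hnrnph1 and Hnrnph3, whose proteins bind runs of G, were both high in PAP animals 1 and 2 and low in animal 3. Hnrnph1 was at 51.5, 61.5 and 59.6 CPM in Astro and at 104, 140.2 and 15.9 CPM in PAP, and Hnrnph3 at 80.4, 108 and 86.0 CPM in Astro and at 179, 175 and 18.2 CPM in PAP. Hnrnpd, which encodes the AU-rich element binding protein AUF1, was high in animal 2 instead, at 43.9, 166 and 38.3 CPM in PAP beside 72.7, 81.2 and 68.4 CPM in Astro. Its relative Hnrnpdl was high in animal 1, at 117, 30.4 and 22.1 CPM in PAP beside 50.9, 47.6 and 55.7 CPM in Astro. Hnrnpa3 was also high in animal 1, at 60.7, 7.73 and 18.2 CPM beside 17.1, 20.4 and 27.1 CPM. Hnrnpl, whose protein binds CA repeats, was low in animal 1, at 28.1, 73.7 and 80.6 CPM in PAP beside 74.5, 63.9 and 81.4 CPM in Astro. The log2 fold changes of these 6 ran from -0.27 (Hnrnpl) to 0.59 (Hnrnph1).

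Among the 11 SR protein genes, Srsf9 and Srsf3 were called higher in PAP by edgeR (18.2%, beside 5.92% of all genes tested). Srsf9 (ENSMUSG00000029538, chr5:115327177-115333080, plus strand) encodes one of the shorter SR proteins and had the most even PAP values of the 5 called genes. It stood at 133, 164 and 137 CPM in Astro and at 502, 469 and 538 CPM in PAP. No Astro value came near any PAP value, and the coefficient of variation was 11.6% in Astro and 6.89% in PAP. The log2 fold change was 1.80 ± 0.25, or 3.48-fold, with an adjusted p of 0.0168 in edgeR, or 0.176 once the animal was a block (range over 17 alternatives 1.12e-31 to 0.176). Its exons share 0% of their words of 50 bases with other transcripts, and no other gene overlaps it. Per kilobase it was the highest SR protein gene in Astro, at 87.35 ± 10.1 CPM per kilobase.

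Srsf3 (ENSMUSG00000071172, chr17:29032628-29043373, plus strand) encodes the smallest SR protein, which links splicing to mRNA export. It stood at 234, 243 and 229 CPM in Astro and at 787, 395 and 494 CPM in PAP. The PAP values differed more among themselves than the lowest of them differed from Astro, and the groups did not overlap. The log2 fold change was 1.25 ± 0.33, or 2.37-fold, with an adjusted p of 0.0388 in edgeR, or 0.206 once the animal was a block (range over 17 alternatives 0.000114 to 0.206). Of the 5 called genes it passed the fewest alternatives, 11 of 17, and the other 4 passed 13 each.

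Srsf2, the nuclear speckle protein SC35 in older names, had the second highest Astro level per kilobase of the family, 78.2 ± 11.8 CPM per kilobase. It stood at 220.3, 203 and 270.3 CPM in Astro and at 218, 220.1 and 123 CPM in PAP, with a log2 fold change of -0.31 ± 0.35 and an edgeR adjusted p of 0.649. Srsf1, the founding SR protein, was at 108, 166 and 121.5 CPM in Astro and at 176.5, 367 and 175.5 CPM in PAP. Its groups did not overlap, but its log2 fold change of 0.86 ± 0.43 was not called, with an edgeR adjusted p of 0.241. Srsf7, which like Srsf3 acts in mRNA export, lay lower in every PAP library, at 92.4, 77.3 and 68.1 CPM beside 131, 114.5 and 148 CPM in Astro. Its log2 fold change of -0.73 ± 0.38 was not called by edgeR (adjusted p 0.264) and was called by DESeq2. Srsf12 had 90, 123 and 56 counts in Astro and 0, 2 and 0 counts in PAP. The ratio of its pooled share in PAP to that in Astro was 0.0655, with an exact 95% interval of 0.00789 to 0.239 that covers counting error only, and its edgeR adjusted p was 0.0815. It was called lower by DESeq2, by limma voom, and by edgeR with technical replicates 1 to 4, with technical replicates 5 to 8 and without PAP animal 2. Srsf5, Srsf10 and Srsf11 overlapped between groups, with log2 fold changes of 0.03 ± 0.47, 0.00 ± 0.77 and 0.73 ± 0.83. Srsf10, whose protein represses splicing when it loses its phosphates, was at 148.5, 16.5 and 100.5 CPM in PAP beside 96.7, 78.3 and 90.5 CPM in Astro. Srsf11 was at 79.6, 331 and 32.7 CPM in PAP beside 97.7, 84.2 and 85.5 CPM in Astro, so that animal 2 held the highest value of one and the lowest of the other.

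**Figure D2:**
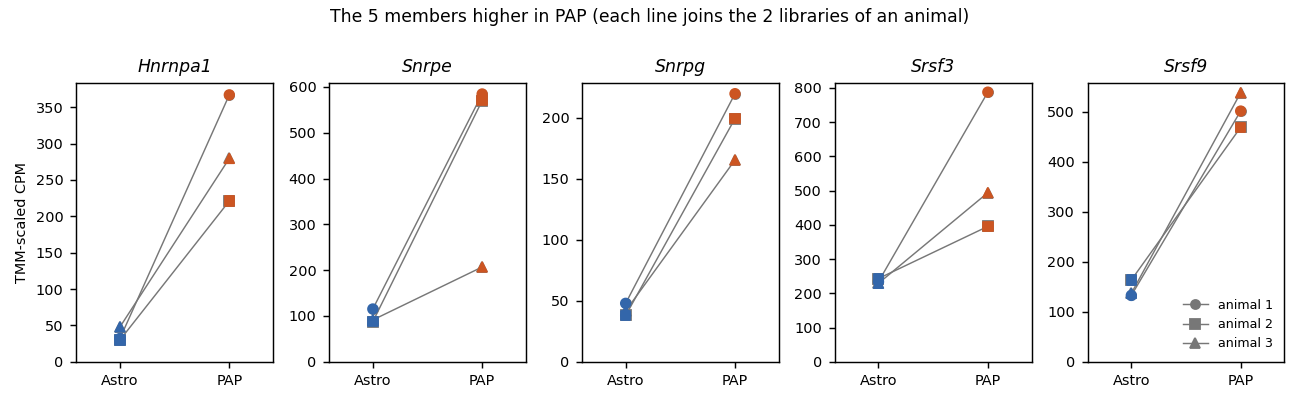
TMM-scaled CPM of the 5 genes called higher in PAP, with a separate vertical axis from 0 for each gene; each grey line joins the Astro library (blue) and the PAP library (orange) of 1 animal. All 15 lines go up, and the PAP values of Srsf9 and Snrpg lie closest together.

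Among the 12 snRNP genes, Snrpe and Snrpg were called higher in PAP by edgeR (16.7%, beside 5.92% of all genes tested). Both encode small Sm proteins of the ring that is shared by the major spliceosomal particles. Snrpe (ENSMUSG00000090553, chr1:133603871-133610291, minus strand) stood at 115, 87.5 and 91.3 CPM in Astro and at 585, 570.1 and 207 CPM in PAP. Animal 3 was far below the other PAP libraries and still above every Astro library. The log2 fold change was 2.21 ± 0.46, or 4.63-fold, with an adjusted p of 0.0212 in edgeR, or 0.206 once the animal was a block (range over 17 alternatives 6.44e-06 to 0.206). Snrpg (ENSMUSG00000057278, chr6:86371304-86379328, plus strand) stood at 47.9, 38.0 and 41.7 CPM in Astro and at 219.9, 199.5 and 165.5 CPM in PAP. Its PAP values lay close together and well above Astro. The log2 fold change was 2.20 ± 0.37, or 4.58-fold, with an adjusted p of 0.0208 in edgeR, or 0.206 once the animal was a block (range over 17 alternatives 1.64e-17 to 0.206). Snrpe shares 9.0% of its words of 50 bases with other transcripts, 2 of them pseudogenes, and Snrpg 11.6%, with 3 pseudogenes. A gene on the opposite strand overlaps Snrpg, and whether counting used strand is not given in the sources used here.

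The proteins of the Sm ring are known to join as 3 pre-assembled units, and their mRNAs differed in their values. These units were set side by side after the values of their genes had been seen, and carry no test. The genes of the unit of Sm proteins E, F and G summed to 199, 163 and 162 CPM in Astro and to 919.5, 847 and 435 CPM in PAP. The third gene of this unit, Snrpf, was at 35.6, 37.9 and 28.6 CPM in Astro and at 115, 77.3 and 62.45 CPM in PAP, without overlap, but its log2 fold change of 1.32 ± 0.52 was not called by edgeR (adjusted p 0.143) and was called by DESeq2. The genes of D1 and D2 summed to 153, 157 and 134 CPM in Astro and to 259, 327 and 198 CPM in PAP. Of these, Snrpd1 had a log2 fold change of 1.09 ± 0.42 without overlap (edgeR adjusted p 0.133), and Snrpd2 one of 0.22 ± 0.47 with overlap. Snrpd1 was called higher by DESeq2, and by edgeR without PAP animal 3. The genes of D3 and B summed to 237, 231.5 and 219 CPM in Astro and to 144, 254 and 99.8 CPM in PAP. Snrpd3 lay below Astro in all PAP libraries, with a log2 fold change of -0.60 ± 0.44 (edgeR adjusted p 0.451), and Snrpb had one of -0.38 ± 0.72. So the sum for E, F and G lay above Astro in all 3 PAP libraries, the sum for D1 and D2 did so too by less, and the sum for D3 and B overlapped.

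Of the Snrp genes, those of proteins found in only 1 kind of particle were not called by edgeR or DESeq2. Snrpa and Snrpc of the U1 particle, which recognises the 5′ splice site, summed to 63.9, 54.2 and 57.2 CPM in Astro and to 62.8, 22.7 and 70.05 CPM in PAP. Snrpa1 and Snrpb2 of the U2 particle, which binds the branch point, summed to 115, 98.8 and 65.7 CPM in Astro and to 167, 222 and 32.05 CPM in PAP. Both pairs of ranges overlapped.

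Snrpn, the imprinted relative of Snrpb that is most abundant in brain, had the highest level per kilobase of all 43 genes in Astro, at 218 ± 34.4 CPM per kilobase. The members ran from 1.345 CPM per kilobase (Hnrnpul2) up to that value. Snrpn stood at 389, 535 and 485 CPM in Astro and at 115, 116 and 335 CPM in PAP. The groups did not overlap, and PAP animal 3 lay much closer to Astro than the other PAP libraries. The log2 fold change of -1.32 ± 0.50 was not called by edgeR (adjusted p 0.125), was called by DESeq2 (adjusted p 0.0233), and was -2.09 with an edgeR adjusted p of 0.0159 without PAP animal 3 (range over 17 alternatives 0.0159 to 0.367). Snrpn overlaps Snurf and Gm38393, so reads of these genes cannot be told apart in shared exons.

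**Figure D3:**
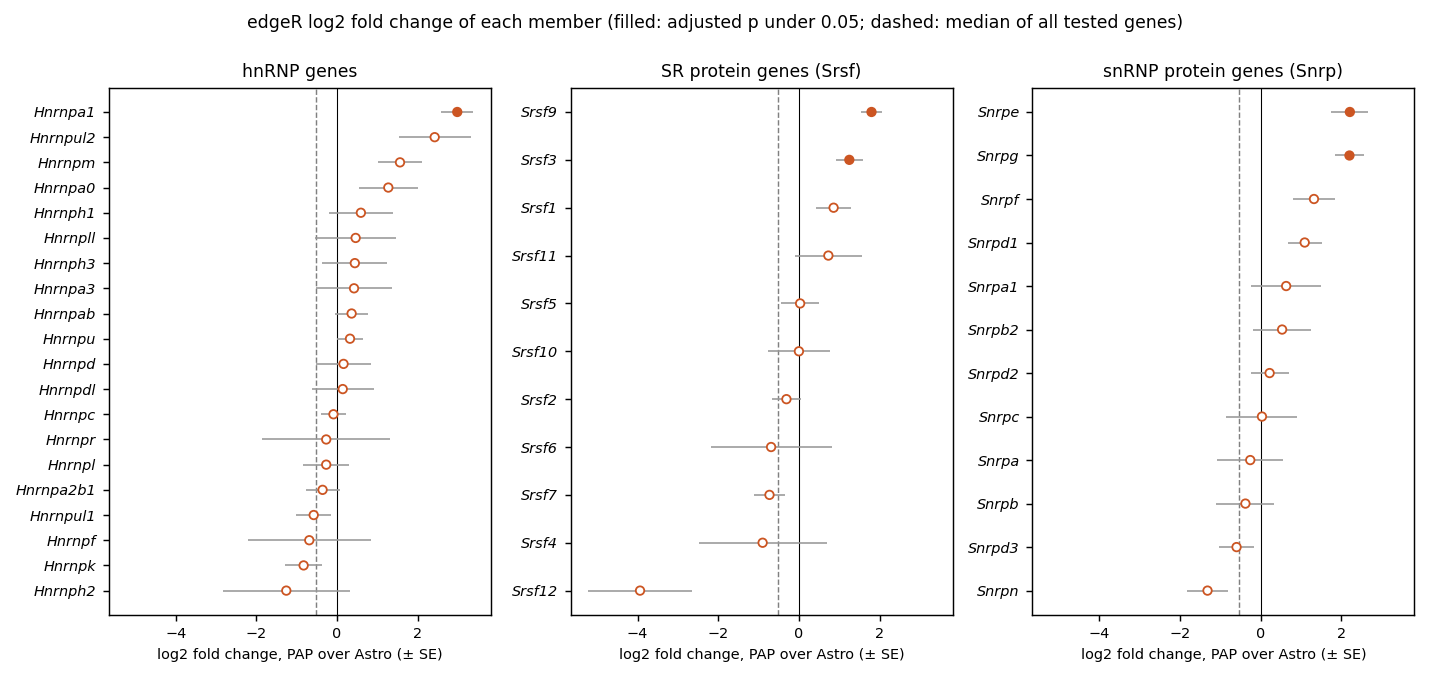
edgeR log2 fold change of PAP over Astro for each of the 43 genes, with bars of 1 SE; filled circles are genes with an adjusted p under 0.05, and the dashed line is the median of all genes tested. The 5 filled circles lie between 1.25 and 2.98, and the dashed line is at -0.53.

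By family, the median log2 fold change was 0.24 for hnRNP, 0.00 for SR protein and 0.38 for snRNP genes. It was 0.16 over the 43 members, of which 26 were above 0 and 17 below, beside -0.53 over all genes tested (-0.49 with the genes at 0 in all PAP libraries set to their bound against the floor). The sign of the median over members depends on the fit: it was -0.13 with the animal as a block, -0.22 with limma voom and -0.01 with no filter on low counts, where the medians of all genes tested were -1.63, -1.62 and -1.04. Scaling by library size alone moved the median of all genes up by 0.15 and left the same number of members called. The groups did not overlap in 11 members that were higher in PAP (25.6%, beside 10.9% of all genes tested) and in 6 that were lower (14.0%, beside 35.1%). Counts and medians of the members are a description and carry no test.

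Summed over members, hnRNP genes stood at 2189, 2123 and 2352 CPM in Astro and at 3028, 2399 and 2206 CPM in PAP, which overlap. SR protein genes stood at 1311, 1357 and 1410 CPM in Astro and at 2214, 2187 and 1769 CPM in PAP, without overlap. For snRNP genes the sums were 1157, 1240 and 1123 CPM in Astro and 1667, 1788 and 1169 CPM in PAP, and PAP animal 3 lay within the Astro range. The 5 called genes made up 562, 562 and 547 CPM in Astro and 2460, 1855 and 1684 CPM in PAP. The other 38 members together were at 4095, 4158 and 4338 CPM in Astro and at 4449, 4518 and 3461 CPM in PAP. The sum without the called genes thus overlapped between groups, and since the called genes were removed by their result this is a description only.

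The members varied far more among PAP libraries than among Astro libraries. The median coefficient of variation was 12.9% in Astro and 58.0% in PAP, beside 22.1% and 97.0% over all genes tested. The highest library was above 5 times the lowest in 17 members in PAP and in 0 members in Astro, where the largest such ratio was 2.54. The PAP libraries did not share 1 order. Animal 1 was the highest in 20 members, animal 2 in 13 and animal 3 in 10, while animal 3 was the lowest in 21, animal 2 in 16 and animal 1 in 6. Across the 43 members, the log2(CPM + 1) values of any 2 Astro libraries had a correlation of 0.97 to 0.98, those of 2 PAP libraries 0.41 to 0.63, and an Astro with a PAP library 0.55 to 0.62. These are correlations across genes, which are not independent replicates, and the PAP libraries share a lower depth. An example is Hnrnpll, whose protein directs splicing of Ptprc in lymphocytes: it was at 56.5, 51.2 and 55.1 CPM in Astro and at 80.1, 5.67 and 137.5 CPM in PAP.

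In 6 members at least 1 PAP library had 3 counts or fewer. They are 14.0% of members, beside 60.4% of all genes tested, and only Srsf12 was that low in all 3 PAP libraries, beside 16.5% of all genes. The members also start from a higher level, with a median of 75.3 CPM in Astro beside 20.6 CPM over all genes tested. Hnrnpr, whose protein takes part in mRNA transport into axons, had 115 and 251 counts in PAP animals 1 and 2 and 0 in animal 3. At that library's depth 0 counts allow up to 1.01 CPM without TMM scaling, while its Astro level was 72.95, 64.7 and 88.2 CPM. Srsf4 had 0, 27 and 251 counts in PAP, and Srsf6 had 140, 0 and 176. Hnrnpf had 65, 0 and 70 counts, and Hnrnph2 41, 88 and 0. Animal 1 was the empty one for Srsf4, animal 2 for Srsf6 and Hnrnpf, and animal 3 for Hnrnpr and Hnrnph2. None of these 5 was called, and a gene near Astro level in some PAP libraries was at 0 in another. A swing from at most 3 counts in 1 PAP library to at least 100 in another was seen in 3 of the 43 members and in 2399 of the 14618 genes tested. With every library thinned to 1829962 counts, the smallest total, Hnrnpr had 119, 106 and 193 counts in Astro and 115, 251 and 0 in PAP.

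**Figure D4:**
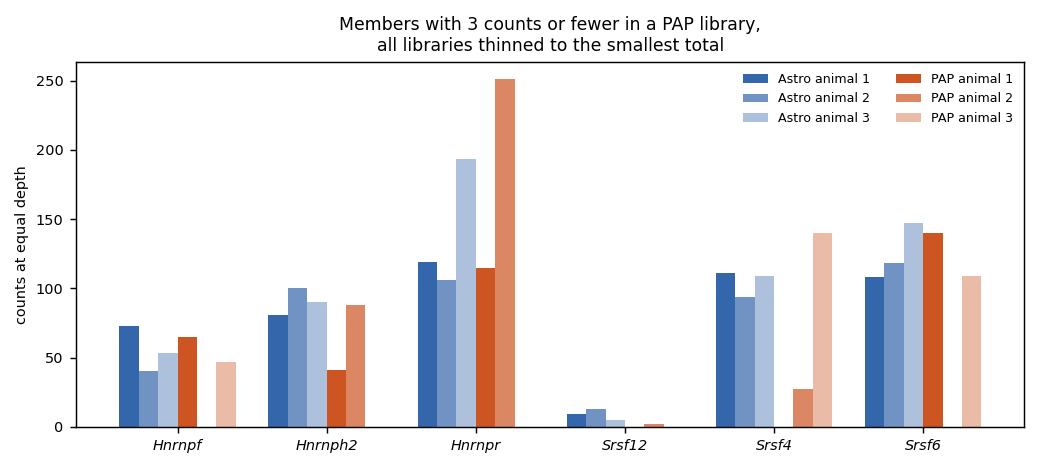
Counts of the 6 members with 3 counts or fewer in a PAP library, after all 6 libraries were thinned to the smallest total; blue bars are Astro and orange bars PAP, with lighter shades for animals 2 and 3. Within PAP, Hnrnpr has bars of 115 and 251 counts and an empty place for animal 3, and Srsf12 is low in all 6 libraries.

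Other gene lists were counted in the same libraries, and their part in the results was not tested. Their counts are read against the 5.92% of all genes tested that edgeR called higher and the 15.4% called lower. Ribosomal protein genes summed to 8692 to 9997 CPM in Astro and to 101096, 90092 and 67688 CPM in PAP, with 75 of 82 called higher and 0 lower. Nuclear-retained RNAs such as Malat1 and Meg3 summed to 202 to 349 CPM in Astro and to 6374, 6197 and 2564 CPM in PAP, with 5 of 8 called higher and 0 lower. B-lineage genes summed to 151 to 169 CPM in Astro and to 9060, 6139 and 4164 CPM in PAP, with 8 of 11 called higher and 1 lower. The one lower was Ighm, at 135, 60 and 60 counts in Astro and 0 in every PAP library. Cd79a and Pax5 were also at 0 in PAP, but had only 2 and 0 counts in each Astro library, so their zeros show no difference. Of neuron markers 1 of 15 was called higher and 3 lower, close to these shares. The sums were 903, 1352 and 1685 CPM in Astro and 515, 1575 and 911 CPM in PAP, and Prox1 was at 0 in PAP. Of 13 oligodendrocyte markers edgeR called 0 (1 lower at an unadjusted p under 0.05), DESeq2 called 1 higher and 1 lower, and limma voom 1 lower. Their sums of 1107 to 1130 CPM in Astro and 535 to 1245 CPM in PAP overlapped. Of 10 microglia markers 3 were called lower and 0 higher. Their sums were 46.55 to 99.2 CPM in Astro and 32.5 to 140.1 CPM in PAP, and 5 of the 10 had a log2 fold change above 0. Cx3cr1, P2ry12 and Tmem119, the 3 called lower, were at 0 in PAP. Trem2, Tyrobp, Cd68, C1qc and C1qa lay above every Astro library in PAP animal 3, at 37.3, 18.5, 43.0, 19.8 and 16.5 CPM. Cd68 did so in PAP animal 1 too, at 7.65 CPM. C1qb lay above every Astro library in PAP animals 1 and 2, at 26.0 and 29.9 CPM, and was at 0 in animal 3. Aif1 was at 0 in PAP and at 0.812 to 1.45 CPM in Astro, near the PAP floor. Only 3 of 12 endothelial markers were deep enough to test, and 0 were called by edgeR (1 higher at an unadjusted p under 0.05) and by limma voom, and 1 higher by DESeq2. Their sums of 37.2 to 70.95 CPM in Astro and 15.5 to 51.0 CPM in PAP overlapped. Ly6c1 was at 1.45, 1.88 and 1.73 CPM in Astro and at 23.0, 3.09 and 12.9 CPM in PAP. Cldn5, Cdh5, Slco1a4, Esam and Vwf were at 0 in PAP, and apart from Slco1a4 in animal 2 they were at most 1.64 CPM in Astro, near the PAP floor, so their zeros show no difference. Once the animal was a block, edgeR called 52 ribosomal protein genes, 3 nuclear-retained RNAs and 6 B-lineage genes higher and 0 of each lower. It called 0 neuron and 0 microglia markers in that fit, with 2 neuron markers higher and 3 lower and 0 and 3 microglia markers at an unadjusted p under 0.05. Of all genes tested, the blocked fit called 0.876% higher and 0.0342% lower, and had 5.42% and 17.9% at an unadjusted p under 0.05.

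Short genes and genes with copies were looked at beside the calls. The median exonic length was 1653 bases in the 5 called genes and 4345 in the other members, and the called genes ran from 1372 bases (Snrpe) to 7899 bases (Srsf3). The part of length in the calls was not tested. The rank correlation of log2 fold change with length was -0.11 across members and 0.05 across 14566 genes, given as descriptions across genes. Of the 43 members, 29 share words of 50 bases with a pseudogene, among them 4 of the 5 called, the exception being Srsf9. With the share of such words the rank correlation of log2 fold change was -0.02 across members. In 22 members another gene overlaps, and Snrpg is the one called gene among them.

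The wider splicing machinery was described by the same counts. Of 52 other proteins of the spliceosomal particles, 4 were higher and 1 lower in PAP, with a median log2 fold change of 0.63. Lsm2, of the ring on U6 RNA, was at 20.25, 17.3 and 14.4 CPM in Astro and at 193, 182 and 55.8 CPM in PAP, a log2 fold change of 3.05 ± 0.64 (edgeR adjusted p 0.0211). Luc7l3, a U1-associated factor, had one of 2.42 ± 0.63 (edgeR adjusted p 0.0391) and passed 9 of 17 alternatives. It was 1.66 and not called without PAP animal 2 (edgeR adjusted p 0.0692), and not called without PAP animal 1 (0.0619), with limma voom (0.0548) or with no filter on low counts (0.0729), over a range of 0.00026 to 0.206. Of 53 other splicing regulators, 6 were higher and 3 lower, with a median of 0.22. Nova1, a neuronal splicing regulator, had 510, 334 and 419 counts in Astro and 0 in every PAP library, which is at least 16.8-fold lower against a floor of 3 counts per library. Taf15, which encodes an RNA-binding protein, had 16, 5 and 2 counts in Astro and 42, 11 and 10 in PAP, a log2 fold change of 4.56 ± 1.26 (edgeR adjusted p 0.0478) on few counts, which passed 6 of 14 alternatives. It was 3.34 and not called without PAP animal 1 (edgeR adjusted p 0.0673), 5.58 and not called without Astro animal 1 (0.11), and not called without PAP animal 2 (0.0515), with limma voom (0.143) or with no filter (0.0828), over a range of 9.85e-05 to 0.226.

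The lists around the splicing proteins are read against the 5.92% of all genes called higher and 15.4% called lower by edgeR. Of 11 genes for SR protein kinases and nuclear import, 0 were called by edgeR (0 at an unadjusted p under 0.05) and by limma voom, and 1 higher by DESeq2, with a median log2 fold change of 0.39. Of 18 genes for snRNP assembly, 1 was higher and 1 lower, with a median of -0.03. Strap, of the SMN complex that loads Sm rings, was at 288, 246 and 322 CPM in Astro and at 728, 506 and 716 CPM in PAP, a log2 fold change of 1.19 ± 0.27 (edgeR adjusted p 0.0246). It passed 11 of 17 alternatives and was not called with limma voom (0.0873) or with no filter on low counts (0.0725), over a range of 3.13e-07 to 0.206. Gemin8, of the same complex, had 260, 104 and 291 counts in Astro and 0 in every PAP library, at least 8.57-fold lower against the same floor. Of 5 exon junction complex genes 0 were called by edgeR (1 lower at an unadjusted p under 0.05), 2 lower by DESeq2 and 1 lower by limma voom, with a median of -0.93. With the animal as a block, edgeR called 0 genes of these 5 lists in either direction. At an unadjusted p under 0.05 that fit had 4 higher and 2 lower of the other particle proteins, 6 and 3 of the other regulators, 1 and 1 of the assembly genes, and 0 in the remaining lists, beside 5.42% higher and 17.9% lower of all genes. Without any one of the Astro libraries none of the 6 genes named from these lists was called by edgeR. DESeq2 called 13 higher and 4 lower of the particle proteins, 15 and 5 of the regulators, and 4 and 2 of the assembly genes, beside 11.5% higher and 23.6% lower of all genes tested. For the same lists limma voom called 2 and 2, 4 and 3, and 0 and 3, beside 4.13% higher and 19.9% lower of all genes tested.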

How the data were processed

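The deposited values are gene counts, whole numbers with no scaling, per the file headers, which name a gene ID and a count. Per the submitters' processing notes, bcl2fastq 2.18.0.12, Trim Galore 0.4.1, STAR 2.5.2b, SAMtools, HTSeq 0.5.3 and mm10 were used; annotation, strand setting and treatment of reads with several matches are not given in the sources used here. Per the labels' protocols, lysates were pre-cleared on columns without antibody and with mouse IgG, RNA was amplified with SMART-Seq v4 and libraries were made with Nextera XT. No molecular identifiers are named, so floors and intervals cover counting error only.

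For each compartment of an animal, 8 technical replicates were summed (n = 3 per group, 6 libraries from 48 samples). Symbols and positions come from GENCODE M21 on GRCm38, which held 47224 of the 47643 IDs, and promoters from RefSeq. Genes passing filterByExpr (minimum count 10) were compared by edgeR 4.0.16's quasi-likelihood test in R 4.3.3, with TMM factors, group alone and Benjamini-Hochberg adjustment over 14618 genes, threshold 0.05. All 43 members passed this filter. The SE of an edgeR log2 fold change is its absolute value divided by the square root of the test's F statistic. The test was also tried on data simulated from the means, totals and dispersions of these libraries, and the outcome is not reported here. DESeq2 1.42.0, limma 3.58.1 and other scalings, filters and subsets were alternatives.

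The labels give the same animals (C1 to C3) in both groups, which is where the pairing comes from. Deviations from the group means of libraries of 1 animal had correlations of 0.033, 0.019 and -0.033.

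Members and lists were chosen with earlier results of these data known. Named in each family were up to 4 called genes per direction by size and the 2 with the highest Astro level per kilobase, with others as exceptions to what is said of the family, and in wider lists the 2 called genes with the largest change.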

Additional observations from a re-analysis of the deposited data

How the results depend on the processing

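The count of members called higher (5) was 0 with the animal as a replicate block and 9 with the DESeq2 Wald test, and ran from 0 to 6 when 1 library was left out. It was 0 without any one of the Astro libraries and 6 without any one of the PAP libraries. The count called lower (0) was 3 with the DESeq2 Wald test, 1 with limma voom with group variance weights (Srsf12), 1 with technical replicates 1 to 4 and 1 with technical replicates 5 to 8, and ran from 0 to 1 when 1 library was left out. Over all genes tested the count called higher was 865, and 128 with the replicate block. The count called lower was 2250, and 5 with the replicate block. DESeq2 size factors, library size alone, upper-quartile factors, a mean of at least 100 counts and thinning to the smallest total each gave 5 higher and 0 lower, beside 5.83% to 6.45% and 8.19% to 15.1% of all genes tested, and no filter on low counts gave 4 and 0, beside 2.39% and 6.47%. Of single genes, Hnrnpab was reversed, at -0.09 without PAP animal 1, with a range of -0.09 to 0.56 over the leave-one-out fits. All 5 called members kept a log2 fold change above 0 in all 17 alternatives, with the lowest value at 0.88 (Srsf3). The cause of these changes was not tested. Depth limits the PAP values: 3 counts there are 1.01 to 1.64 CPM.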

Other observations

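Of the 5 pseudogenes with symbols like those of the members, only Snrpert, a processed pseudogene, had enough counts to be tested. It held 56, 45 and 44 counts in Astro and 27, 32 and 6 in PAP, or 3.01, 2.64 and 2.23 CPM and 13.8, 16.5 and 1.98 CPM. Its log2 fold change was 2.02 with an edgeR adjusted p of 0.229, and PAP animal 3 lay below every Astro library. Hnrnpa1l2-ps2 had 0, 0 and 1 counts in Astro and 0, 2 and 0 in PAP, and Hnrnpa1l2-ps had 1 count, in PAP animal 2. The remaining pair had 0 counts in all 6 libraries.

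Among the 9 other splicing regulators that were called, further examples chosen after their values had been seen were Rbm25, a regulator linked to the U1 particle, and Pcbp2, a protein that binds runs of C and is related in its RNA-binding domains to Hnrnpk. Rbm25 was at 37.9, 41.9 and 40.1 CPM in Astro and at 539.8, 647 and 225 CPM in PAP, with a log2 fold change of 3.56 ± 0.47 and an edgeR adjusted p of 0.0145 (0.0674 with the animal as a block). Pcbp2 was at 102, 102 and 87.4 CPM in Astro and at 474.5, 357 and 349.6 CPM in PAP, with a log2 fold change of 2.02 ± 0.29 and an edgeR adjusted p of 0.0182 (0.166 with the block). Elavl1, which stabilises mRNAs with AU-rich elements, was lower in PAP, at 49.0, 21.1 and 40.3 CPM beside 152, 113 and 144 CPM in Astro, with a log2 fold change of -1.89 ± 0.50 and an edgeR adjusted p of 0.0408 (0.206 with the block).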
